A study of Mus musculus with 24 samples.

Results

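Smad1, Smad2, Smad3, Smad4, Smad5 and Smad9, the genes of the receptor-regulated Smads and of the common Smad, were examined in mouse embryonic stem cells with and without Smad2. The members were all deposited accessibility intervals that overlapped the GRCm38 body of 1 of these 6 genes extended by 20 kb on each side. They numbered 130 of 299780 intervals in the table of untreated cells and 131 of 272268 in the table of mTOR-inhibited cells. The question was whether the related Smad genes gained or lost accessibility when Smad2 was lost.

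Smad proteins carry signals of the transforming growth factor beta family from the cell surface to chromatin. Ligand-bound receptors phosphorylate Smad2 and Smad3 in the Nodal, Activin and TGF-beta branch, and Smad1, Smad5 and Smad9 (also called Smad8) in the BMP branch. The phosphorylated receptor Smads bind the common Smad, Smad4, and enter the nucleus, where they act on enhancers together with other transcription factors. In embryonic stem cells the first branch is known for its part in mesendoderm differentiation, and the BMP branch for inducing Id genes.

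ATAC-seq was used, an assay of accessible chromatin that cuts and tags open DNA with the Tn5 transposase. All cells were E14 mouse embryonic stem cells on gelatin with serum and LIF. The 3 lines were wild type (WT), Smad2_KO1 and Smad2_KO2. Each was taken untreated (Ctrl) or after 12 hours in 200 nM of the mTOR inhibitor INK128 (Paused), with 4 libraries of 50000 cells in each of the 6 groups. The labels do not say how Smad2 was disrupted, whether a KO line is 1 clone, or whether the 4 libraries of a group came from separate cultures, so the p-values measure only the spread between these libraries.

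Reads in intervals ran from 11.8 to 16.5 M (megareads) per Ctrl library and from 11.5 to 20.0 M per Paused library. Every Paused Smad2_KO1 library (14.9 M or more) was deeper than every Paused WT library (14.8 M or fewer), so depth and line cannot be told apart there. All 7 embryonic stem cell marker genes on the list had an interval, the strongest averaging 44.9 (Pou5f1) to 515 (Zfp42) normalized reads in Ctrl. The sum of the strongest intervals of these 7 genes was 2185 in WT, 2304 in Smad2_KO1 and 2287 in Smad2_KO2 in Ctrl, and 2678, 2581 and 2561 in Paused. The 4 fibroblast genes had intervals too, and that sum was 449 in WT, 385 in Smad2_KO1 and 392 in Smad2_KO2 in Ctrl, and 634, 524 and 524 in Paused, where Thy1 and Col1a1 were lower in the KO lines and Col1a2 and Twist2 higher. The 4 primitive endoderm genes summed to 722, 662 and 664 in Ctrl and to 895, 805 and 812 in Paused, and the 3 trophoblast genes to 195, 179 and 178 and to 361, 312 and 335. Members of a set differed. In Ctrl, Nanog, Zfp42 and Esrrb were higher in both KO lines, Pou5f1 and Tfcp2l1 were lower, and Sox2 and Klf4 were mixed. In Paused, Klf4 was higher in both KO lines and the other stem cell genes were lower. Elf5 was higher in Ctrl, where Cdx2 and Hand1 were lower. The part of these differences in the results was not tested.

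Values are the authors' normalized reads per interval of 201 bases, and log2 fold changes are KO against WT on log2(value + 1). An interval was called when limma gave an adjusted p under 0.05 (Benjamini-Hochberg, over all intervals of its table) against WT in both KO lines with the same sign. In these bulk libraries, fewer cells with an open site and less opening per cell cannot be told apart.

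The start-site intervals were measured first. For Smad1, Smad3, Smad5 and Smad9 each is the interval over or nearest to an annotated start. For Smad2 and Smad4, without an annotated start here, it is the strongest interval in or near the gene. RefSeq (GRCm38.p6) gave promoter sequence for 4 of the 6 genes. The bases just before the annotated gene start are shown for these 4, 5′ to 3′ on the gene's strand, with CG dinucleotides in capitals. They show the sequence at and beside the start-site intervals.
Smad1, chr8:79399429-79399678, minus strand: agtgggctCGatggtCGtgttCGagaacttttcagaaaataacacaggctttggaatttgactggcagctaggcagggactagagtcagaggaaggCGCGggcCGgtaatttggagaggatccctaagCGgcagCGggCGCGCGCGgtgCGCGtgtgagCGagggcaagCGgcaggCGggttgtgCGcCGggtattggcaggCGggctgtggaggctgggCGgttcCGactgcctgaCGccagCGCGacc
Smad3, chr9:63757995-63758244, minus strand: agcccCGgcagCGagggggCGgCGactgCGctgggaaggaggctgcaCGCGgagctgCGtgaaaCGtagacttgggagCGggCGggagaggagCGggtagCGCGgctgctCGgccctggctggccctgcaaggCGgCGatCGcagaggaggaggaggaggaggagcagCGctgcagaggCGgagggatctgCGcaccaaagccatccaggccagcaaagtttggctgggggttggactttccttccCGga
Smad5, chr13:56702760-56703009, plus strand: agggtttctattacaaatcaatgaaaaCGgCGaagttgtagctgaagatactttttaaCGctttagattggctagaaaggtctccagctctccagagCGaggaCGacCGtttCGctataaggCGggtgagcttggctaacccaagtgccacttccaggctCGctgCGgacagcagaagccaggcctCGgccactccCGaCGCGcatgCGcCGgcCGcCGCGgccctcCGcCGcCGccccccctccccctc
Smad9, chr3:54755332-54755454, plus strand: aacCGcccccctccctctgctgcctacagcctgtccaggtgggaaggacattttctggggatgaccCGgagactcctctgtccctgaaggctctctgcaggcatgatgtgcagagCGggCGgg

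Over the 250 bases before the annotated start, the CG dinucleotide count was 25 at Smad1, 22 at Smad3, 22 at Smad5 and 24 at Smad9, against a median of 6 over 32841 RefSeq promoters. G and C made up 63.6%, 69.2%, 60% and 73.2% of these bases, against a median of 52.4%. For Smad9 only 123 of the 250 bases are shown, because the rest lies past the start of the annotated gene body, and 4 of its 24 CG dinucleotides are in the part shown. On either strand, the Smad3 and Smad4 recognition letters CAGAC had no match in any of the 4, against 42.2% of all promoters with one. The letters TGGCGCC (an element bound by BMP Smads) matched in Smad9 alone, in the 250 bases searched, against 3.22% of all promoters. AATNCACA, the letters of the Nodal partner Foxh1, matched in none of the 4, against 3.19%. The start-site interval covered 157 of the bases shown for Smad1 in Ctrl and 159 of those for Smad3. That of Smad5 lay inside the gene, 28 bases from the nearest of its 3 annotated starts. In Paused a different Smad5 interval was used, 184 bases from the nearest start.

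The start-site intervals of all 6 Smad genes were open in both KO lines, and none was called in either treatment. Smad2 itself, the targeted gene, had the strongest start-site interval of the 6 (chr18:76241181-76241381), chosen as the strongest in or near its gene. In Ctrl its 4 libraries read 410, 337, 313 and 387 normalized reads in WT, 379, 301, 398 and 374 in Smad2_KO1, and 330, 341, 379 and 368 in Smad2_KO2. The groups overlapped throughout, with log2 fold changes of 0.01 and -0.02 (limma adjusted p = 0.980 and 0.911). In Paused the WT libraries read 498, 398, 336 and 534, against 378 to 410 in Smad2_KO1 and 350 to 412 in Smad2_KO2. The Paused WT libraries were spread on both sides of the KO libraries, and the log2 fold changes were -0.12 and -0.16 (adjusted p = 0.394 and 0.238), a difference called lower only without WT replicate 3 (mean -0.26). Accessibility does not measure the Smad2 product, so these values do not check the knockout.

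No interval of the Smad2 window was called lower in either treatment. The mean log2 fold change of the KO lines ran from -0.39 to 1.10 over its 13 tested Ctrl intervals and from -0.14 to 0.97 over its 16 Paused intervals. The Ctrl interval with the smallest p lay 7.43 kb into the gene (chr18:76248614-76248814). It read 4.27, 8.96, 4.38 and 5.39 in WT, 13.9 to 17.5 in Smad2_KO1 and 8.50 to 14.6 in Smad2_KO2. The Smad2_KO1 libraries were all above WT, whereas 1 Smad2_KO2 library fell inside the WT range. The log2 fold changes were 1.31 and 0.88 (limma adjusted p = 0.00555 and 0.0714). Among the other fits made here it was called only without WT replicate 2 (mean 1.30) or when the KO libraries were averaged or joined. The authors' deposited false discovery rate for this interval was 0.0216.

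Paused cells had 2 intervals in the Smad2 body that were called higher. The one 22.5 kb into the gene (chr18:76263637-76263837) read 8.64, 7.51, 12.9 and 6.62 in WT against 12.1 to 19.0 in Smad2_KO1 and 16.4 to 23.0 in Smad2_KO2, with 1 Smad2_KO1 library inside the WT range. The one 24.3 kb into the gene (chr18:76265486-76265686) read 5.40, 5.37, 8.63 and 9.27 against 11.2 to 16.9 and 12.3 to 25.5, with every KO library above every WT library. Their log2 fold changes were 0.82 and 1.05 (limma adjusted p = 0.0299 and 0.00596) and 0.89 and 1.06 (adjusted p = 0.0364 and 0.0137). The first call was lost without WT replicate 2 or 4 or Smad2_KO1 replicate 1, 2 or 4 (largest adjusted p = 0.0890), and the second without WT replicate 1 or 2, Smad2_KO1 replicate 1, 2 or 4, or Smad2_KO2 replicate 2 (largest 0.0980). Both also lost it under DESeq2 size factors.

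**Figure D1:**
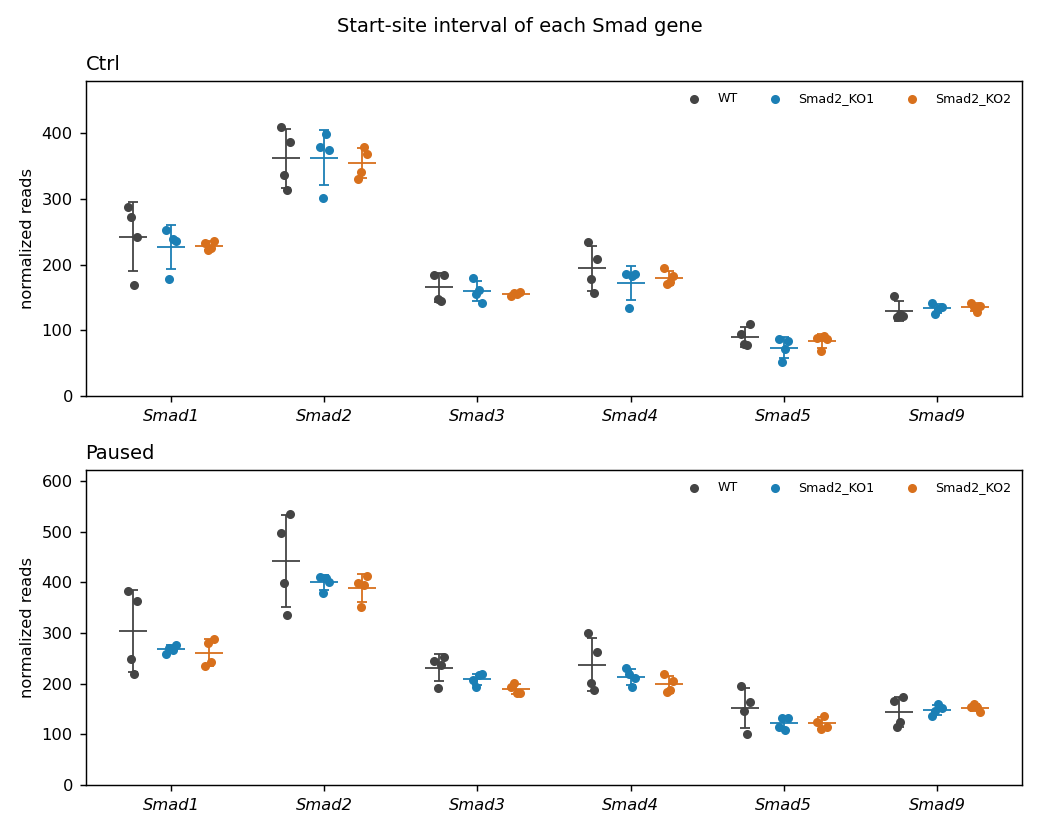
Normalized reads (y axis, from 0) of the start-site interval of each Smad gene (x axis) in Ctrl and Paused, with 1 point per library and bars at the mean ± SD of 4 libraries. Smad2 has the highest and Smad5 the lowest interval in Ctrl, and the KO points overlap WT at every gene.

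Among the other genes, Ctrl WT start-site intervals averaged 243 ± 52.2 normalized reads at Smad1, 194 ± 34.3 at Smad4, 165 ± 22.2 at Smad3, 130.1 ± 15.2 at Smad9 and 90.4 ± 15.0 at Smad5 (SD, n = 4 each). The order was Smad2, Smad1, Smad4, Smad3, Smad9 and Smad5, and the ranges of neighbouring genes overlapped except for Smad2 over Smad1 and Smad9 over Smad5. Against WT, Smad2_KO1 ranged from -0.30 (Smad5) to 0.05 (Smad9) in log2 fold change in Ctrl, and Smad2_KO2 from -0.10 to 0.06. In Paused, Smad3 gave the smallest adjusted p: the interval read 244, 192, 236 and 253 in WT, 194 to 219 in Smad2_KO1 and 181 to 201 in Smad2_KO2. Its log2 fold change passed in Smad2_KO2 (-0.28, limma adjusted p = 0.0371) and not in Smad2_KO1 (-0.14, adjusted p = 0.313), so it was not called. The Paused Smad5 interval (-0.27 in both lines, adjusted p = 0.142 and 0.145) was not called. Among the other fits made here it was called lower only under DESeq2 size factors, in edgeR on recovered reads, or without WT replicate 3 (mean -0.45) or replicates 3 and 4 together. The authors' deposited false discovery rate for this interval was 0.0456 (log2 fold change -0.26).

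Away from the promoters, intervals of 4 of the 6 genes in Ctrl and of all 6 in Paused were called. In Ctrl 9 of 123 tested members were called, 5 higher and 4 lower, which is 7.32% beside 7.15% of all tested intervals (3.95% higher and 3.2% lower). In Paused 15 of 128 were called, 11 higher and 4 lower, which is 11.7% beside 13.9% of all (9.01% higher and 4.92% lower). In this fit the members' share of calls was thus near that of the whole table in both treatments. The tested members had a median log2 fold change of 0.10 in Ctrl and 0.21 in Paused, beside 0.08 and 0.12 over all tested intervals. With DESeq2 size factors 8 were called in Ctrl (3 higher, 5 lower) and 10 in Paused (5 and 5), beside 7.61% and 14.8% of all. With edgeR on recovered reads 12 were called in Ctrl (4 and 8) and 11 in Paused (5 and 6), beside 7.79% and 14.5%. The DESeq2 Wald test on recovered reads called 5 and 6, beside 4.06% and 8.89%. In Paused the members' share was thus below that of the whole table in these 3 fits. The filter on low values (at least 4 libraries at 10 or more) left out 7 Ctrl and 3 Paused members.

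Most called intervals lay inside the gene bodies, 8 of 9 in Ctrl and 13 of 15 in Paused, as did 82 of the 123 and 85 of the 128 tested ones. Whether they fall in exons or introns was not analysed here. The authors' deposited table gave a false discovery rate under 0.05 to 19 members in Ctrl (10 higher, 9 lower) and 24 in Paused (17 and 7), beside 12.2% and 21.6% of all deposited intervals. All 9 and all 15 called members were among these. Between the KO lines no member was called by limma in either treatment, nor was any interval of either table (0.0%). An unadjusted limma p under 0.05 was found for 1 of the 123 tested members in Ctrl and 3 of the 128 in Paused. Of all tested intervals 3.28% and 1.97% had one.

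**Figure D2:**
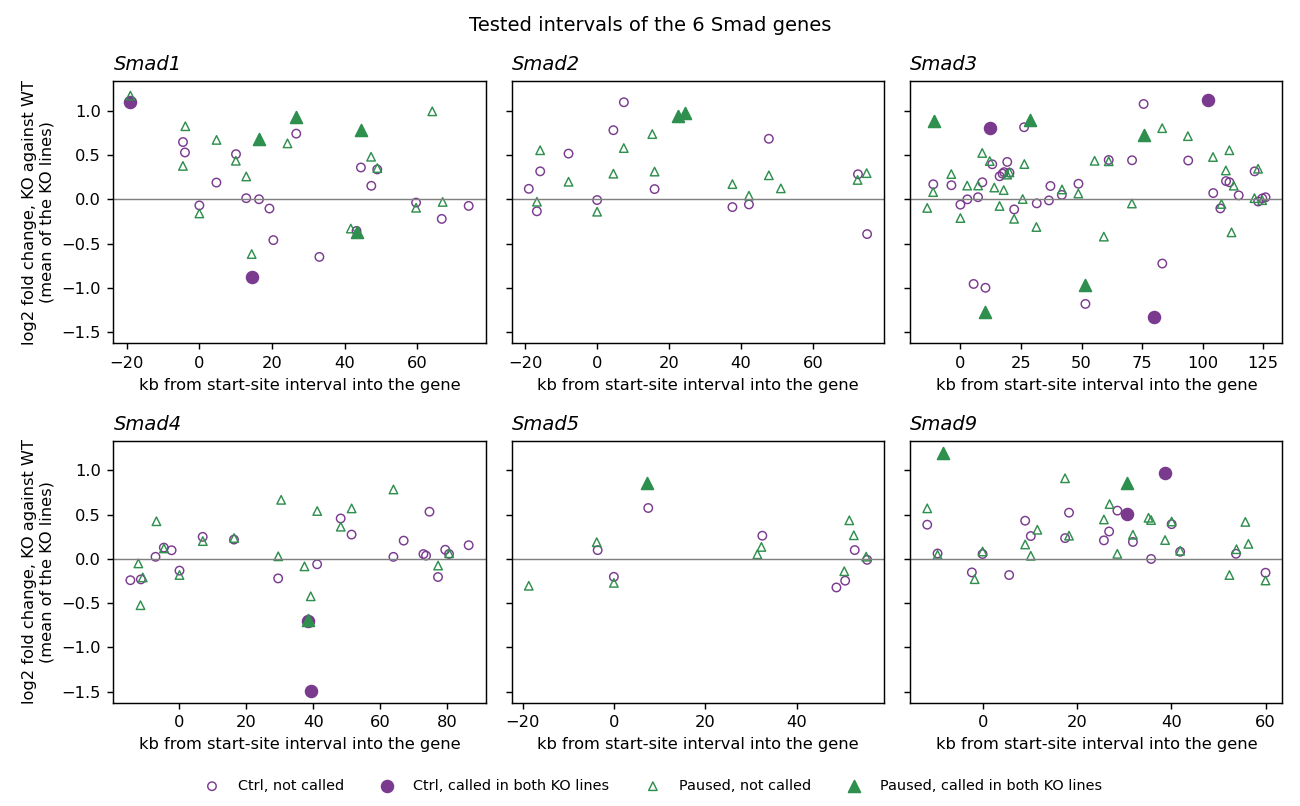
Mean log2 fold change of the KO lines against WT (y axis) for each tested interval, by distance in kb from the start-site interval into the gene (x axis, negative values upstream). Filled symbols are called intervals: they lie away from 0 kb, and at Smad4 a Ctrl and a Paused symbol coincide 38.3 kb into the gene at about -0.70.

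Smad4, the common partner of all receptor Smads, lost signal at an intragenic interval in both treatments. In Ctrl the interval 38.3 kb from the start-site interval (chr18:73665464-73665664) read 121, 124, 129 and 101 normalized reads in WT. It read 65.8, 66.8, 77.8 and 76.2 in Smad2_KO1 and 69.1, 85.5, 68.0 and 70.5 in Smad2_KO2. All 8 KO libraries were below all 4 WT libraries, by -0.72 ± 0.13 in Smad2_KO1 and -0.69 ± 0.13 in Smad2_KO2 on the log2 scale (each with its SE; adjusted p = 0.000169 and 0.000306 in limma).

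In Paused the interval at the same place (chr18:73665461-73665661) read 114, 107, 111 and 109.9 in WT, 69.4, 68.9, 66.5 and 64.6 in Smad2_KO1 and 57.9, 66.7, 77.5 and 74.4 in Smad2_KO2. Again no KO library reached the WT range, and the log2 fold changes were -0.71 and -0.68 (limma adjusted p = 0.000138 and 0.000242). Both calls held under all 13 alternatives and without each of the 12 libraries in turn.

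A weaker Smad4 interval beside it, 39.2 kb into the gene (chr18:73664580-73664780), was called lower in Ctrl. It read 27.8, 28.7, 49.3 and 58.2 in WT, 10.4 to 20.6 in Smad2_KO1 and 10.1 to 12.7 in Smad2_KO2. No KO library reached the WT range, and WT replicates 3 and 4 stood above replicates 1 and 2. The log2 fold changes were -1.31 and -1.66 (limma adjusted p = 0.000262 and 7.54e-06). The call held without each library in turn and was lost without WT replicates 3 and 4 together (adjusted p = 0.0864). In Paused its counterpart was not called, at -0.50 and -0.35. No Smad4 interval was called higher in either treatment.

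Smad9, a BMP-branch receptor Smad, was called higher at 2 of 20 tested intervals in Ctrl and at 2 of 25 in Paused. None was called lower. These shares of 10.0% and 8.0% stood beside 7.15% and 13.9% of all tested intervals called in either direction (3.95% and 9.01% higher). In Paused the interval 30.6 kb into the gene (chr3:54786036-54786236) read 70.2, 49.4, 73.4 and 80.8 in WT. It read 121, 121, 121 and 117 in Smad2_KO1 and 129, 132, 137 and 105 in Smad2_KO2. Every KO library was above every WT library, by 0.82 ± 0.13 in Smad2_KO1 and 0.88 ± 0.13 in Smad2_KO2 on the log2 scale (each with its SE; adjusted p = 2.63e-05 and 1.00e-05 in limma). This call held under all 13 alternatives and without each of the 12 libraries.

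In Ctrl the matching interval (chr3:54786019-54786219) read 78.0, 59.1, 50.4 and 70.1 in WT, 103, 85.3, 98.4 and 78.5 in Smad2_KO1 and 103, 92.8, 72.2 and 95.6 in Smad2_KO2. It was called higher, although 1 Smad2_KO2 library lay inside the WT range, with log2 fold changes of 0.51 and 0.50 (limma adjusted p = 0.0142 and 0.0166). The call was lost without WT replicate 3, Smad2_KO1 replicate 1 or 3, or Smad2_KO2 replicate 1 (largest adjusted p = 0.0809).

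Of 86 intervals matched across the tables by at least 50% overlap of each and tested in both, these Smad4 and Smad9 intervals were the 2 called in both treatments. Of the matched intervals 7 were called in Ctrl and 10 in Paused, and their mean log2 fold change had the same sign in the other treatment. For 1 of them, the Smad1 interval 16.5 kb into the gene that was called in Paused, the Ctrl value was near 0, with -0.14 in Smad2_KO1 and 0.14 in Smad2_KO2. The tables were normalized separately and no test was made between treatments. Only intervals of the Smad genes were matched, so the share of all intervals called in both treatments is not known here. Whether 2 of 86 is high or low beside that share was not tested.

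Smad9 had another called interval in each treatment, both weak. In Ctrl the one 38.6 kb into the gene (chr3:54794051-54794251) read 9.61, 7.17, 9.86 and 6.47 in WT, 14.1 to 19.6 in Smad2_KO1 and 13.0 to 19.1 in Smad2_KO2. The log2 fold changes were 0.99 and 0.95 (limma adjusted p = 0.0124 and 0.0175), and the call was lost without WT replicate 4 or Smad2_KO2 replicate 2 or 4 (largest adjusted p = 0.0545). In Paused an interval 8.29 kb upstream, inside the neighbouring gene Alg5 (chr3:54747139-54747339), read 7.56, 10.7, 10.8 and 1.32 in WT, 11.4 to 19.9 in Smad2_KO1 and 12.0 to 21.0 in Smad2_KO2. At both places every KO library was above every WT library. The Alg5 interval changed by 1.22 and 1.18 on the log2 scale (adjusted p = 0.0151 and 0.0185), and lost its call without WT replicate 4, Smad2_KO1 replicate 2 or 3, or Smad2_KO2 replicate 2 (largest adjusted p = 0.146).

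**Figure D3:**
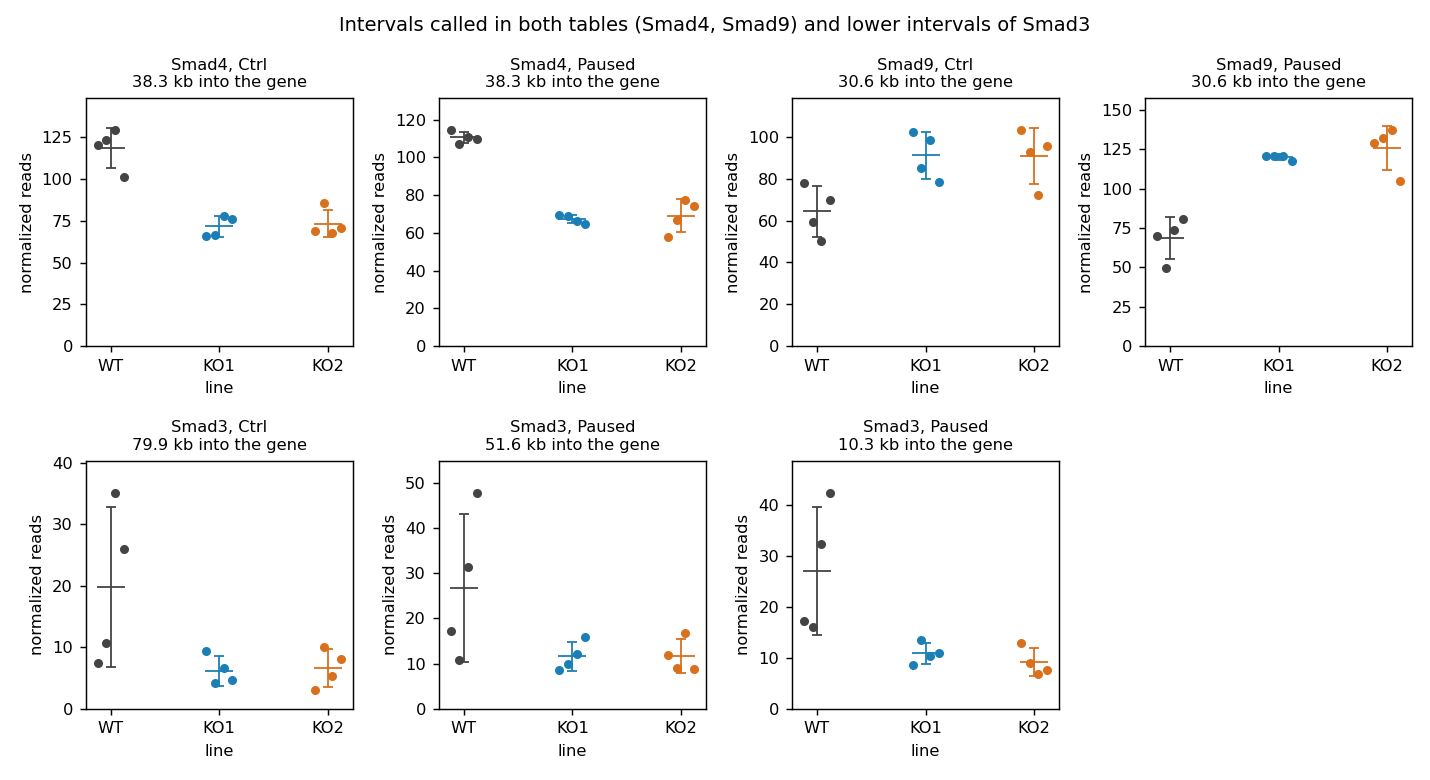
Normalized reads (y axis, from 0) by line (x axis) at the Smad4 and Smad9 intervals called in both treatments and at the 3 Smad3 intervals called lower, with 1 point per library and bars at the mean ± SD of 4 libraries. KO points lie clear of WT at Smad4, and at Smad3 WT replicates 3 and 4 (the right-hand WT points) stand above replicates 1 and 2.

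Smad3, which shares ligands and receptors with Smad2, had called intervals in both directions. It had 42 intervals in Ctrl and 41 in Paused, the most of the 6 genes. In Ctrl, 3 of 39 tested were called, 2 higher and 1 lower, and in Paused 5 of 39, 3 higher and 2 lower.

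The intervals that fell at Smad3 had uneven WT libraries. In Ctrl the one 79.9 kb into the gene (chr9:63678173-63678373) read 7.48, 10.7, 35.0 and 25.9 in WT, 4.11 to 9.40 in Smad2_KO1 and 3.01 to 10.0 in Smad2_KO2. In Paused the one 51.6 kb in (chr9:63706447-63706647) read 17.3, 10.7, 31.3 and 47.7 in WT against 8.55 to 15.9 and 8.75 to 16.8. The Paused interval 10.3 kb in (chr9:63747722-63747922) read 17.3, 16.1, 32.4 and 42.4 in WT against 8.55 to 13.6 and 6.74 to 13.0. In all 3, WT replicates 3 and 4 stood above replicates 1 and 2, and only in the last did every KO library lie below every WT library.

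Their log2 fold changes were -1.35 and -1.31 in Ctrl (limma adjusted p = 0.0195 and 0.0248), -0.97 and -0.97 for the first Paused interval (adjusted p = 0.0288 and 0.0275), and -1.15 and -1.40 for the second (adjusted p = 0.00640 and 0.00113). Without WT replicates 3 and 4 all 3 calls were lost (adjusted p = 0.651, 0.701 and 0.3004) and the mean log2 fold changes were -0.51, -0.25 and -0.72. The last one was also lost without WT replicate 4 alone (adjusted p = 0.0519). The Ctrl one was lost without WT replicate 3 or 4, Smad2_KO1 replicate 2, or Smad2_KO2 replicate 1 or 3 (largest 0.165). The other Paused one was lost without WT replicate 3 or 4, Smad2_KO1 replicate 1, 2 or 3, or Smad2_KO2 replicate 2 or 4 (largest 0.194).

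The intervals that rose at Smad3 were weak, with WT means of 5.07 and 14.1 normalized reads in Ctrl. The one 102.0 kb into the gene (chr9:63656048-63656248) read 4.27, 6.27, 3.29 and 6.47 in WT, 10.3 to 14.1 in Smad2_KO1 and 9.10 to 15.0 in Smad2_KO2, with no overlap. Its log2 fold changes were 1.16 and 1.08 (limma adjusted p = 0.0185 and 0.0305), and the call was lost without WT replicate 1 or 3, Smad2_KO1 replicate 3, or Smad2_KO2 replicate 1, 3 or 4 (largest 0.110). The one 12.1 kb in (chr9:63745950-63746150) read 14.9, 8.96, 13.1 and 19.4 in WT, 17.3 to 26.2 and 25.1 to 30.0, with 1 Smad2_KO1 library inside the WT range. It changed by 0.68 and 0.93 on the log2 scale (adjusted p = 0.0466 and 0.00575), and kept its call only when the library left out was WT replicate 4 or Smad2_KO1 replicate 4 (largest adjusted p otherwise 0.171).

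In Paused the Smad3 interval 10.9 kb upstream of the start-site interval (chr9:63768910-63769110) read 8.64, 7.51, 7.55 and 6.62 in WT, 12.3 to 19.0 in Smad2_KO1 and 11.2 to 23.0 in Smad2_KO2. The one 28.9 kb into the gene (chr9:63729162-63729362) read 8.64, 8.59, 6.47 and 5.30 in WT, 8.94 to 19.9 and 12.0 to 18.0. At both, all KO libraries were above all WT libraries. Their log2 fold changes were 0.86 and 0.91 (limma adjusted p = 0.0350 and 0.0266) and 0.84 and 0.96 (adjusted p = 0.0495 and 0.0248). Both lost the call under DESeq2 size factors. The first was lost without WT replicate 4, Smad2_KO1 replicate 2 or 3, or Smad2_KO2 replicate 1 or 2 (largest 0.131), and the second kept it only when WT replicate 2 or Smad2_KO1 replicate 4 was the library left out (largest otherwise 0.196). The remaining called interval, 75.6 kb in, had log2 fold changes of 0.71 and 0.74.

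Smad1, a BMP-branch receptor Smad, was called higher at 3 and lower at 1 of 19 tested intervals in Paused, and at 1 and 1 of 20 in Ctrl. The Paused interval 26.7 kb into the gene (chr8:79372668-79372868) read 12.9, 16.1, 12.9 and 10.6 in WT, 30.4, 19.9, 28.5 and 25.8 in Smad2_KO1 and 24.0, 26.2, 21.3 and 31.7 in Smad2_KO2. Every KO library was above every WT library, with log2 fold changes of 0.94 and 0.92 (limma adjusted p = 0.00307 and 0.00367), and the call held under all 13 alternatives and without each library. Its Ctrl counterpart moved by 0.59 and 0.89 and was not called.

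The other Smad1 intervals that rose in Paused lay 44.5 kb (chr8:79354862-79355062) and 16.5 kb (chr8:79382919-79383119) into the gene. The former read 45.3, 17.2, 28.1 and 17.2 in WT, 38.7 to 53.5 in Smad2_KO1 and 29.5 to 56.2 in Smad2_KO2. The latter read 10.8, 19.3, 23.7 and 13.2 in WT, 21.9 to 33.7 and 22.5 to 30.0. At both, WT overlapped the KO lines through its highest library. The log2 fold changes were 0.79 and 0.77 (limma adjusted p = 0.00912 and 0.0115) and 0.73 and 0.64 (adjusted p = 0.0218 and 0.0449). The former lost its call without WT replicate 4 or Smad2_KO2 replicate 2 (largest 0.0663). The latter kept it only when WT replicate 2 or 3 or Smad2_KO1 replicate 4 was left out (largest otherwise 0.175), and lost it under DESeq2 size factors.

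The Paused Smad1 interval that fell, 43.3 kb into the gene (chr8:79356071-79356271), was the strongest called one at this gene. It read 176, 147, 156 and 143 in WT, 91.2, 109.7, 135 and 136 in Smad2_KO1 and 121, 118, 116 and 139 in Smad2_KO2. All KO libraries were below all WT libraries, and the change was small, -0.41 and -0.33 (limma adjusted p = 0.0132 and 0.0460). The call was lost when any of 8 libraries was left out, kept only without WT replicate 2 or 4, Smad2_KO1 replicate 4 or Smad2_KO2 replicate 4 (largest adjusted p otherwise 0.140).

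In Ctrl the Smad1 interval 14.4 kb into the gene (chr8:79385002-79385202) read 26.7, 45.7, 47.1 and 33.4 in WT, 18.7 to 23.1 in Smad2_KO1 and 12.8 to 24.1 in Smad2_KO2. It lay below WT in every KO library, by -0.82 and -0.94 on the log2 scale (limma adjusted p = 0.00965 and 0.00306), and the call held without each library in turn. Without WT replicates 3 and 4 together the mean log2 fold change was -0.79 and the adjusted p was 0.0966. The Ctrl interval 19.0 kb upstream (chr8:79418390-79418590) read 9.61, 4.48, 13.1 and 7.55 in WT, 17.3 to 28.1 in Smad2_KO1 and 8.50 to 21.8 in Smad2_KO2. There 1 Smad2_KO2 library lay inside the WT range, and the log2 fold changes were 1.32 and 0.87 (adjusted p = 0.00181 and 0.0451). That call was lost under DESeq2 size factors and was kept only when WT replicate 1 or 3, Smad2_KO1 replicate 4 or Smad2_KO2 replicate 3 was left out (largest otherwise 0.172).

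Smad5, the last BMP-branch receptor Smad, had the fewest intervals, 8 in Ctrl and 11 in Paused. An interval 7.31 kb from its start-site interval was called higher in Paused (chr13:56710591-56710791). It read 15.1, 15.0, 27.0 and 17.2 in WT, 34.2, 26.3, 36.3 and 29.8 in Smad2_KO1 and 39.9, 36.8, 32.5 and 33.9 in Smad2_KO2. Only WT replicate 3 overlapped a KO library, and the log2 fold changes were 0.77 and 0.95 (limma adjusted p = 0.00698 and 0.00115), a call kept without each library in turn. It was lost in the DESeq2 Wald test on recovered reads and without WT replicates 1 and 2 together (mean 0.61, adjusted p = 0.112). In Ctrl the matching interval had the smallest p at Smad5 and was not called. It read 16.0 to 29.6 in WT, 28.9 to 50.6 in Smad2_KO1 and 18.1 to 38.2 in Smad2_KO2, with log2 fold changes of 0.71 and 0.44 (adjusted p = 0.0254 and 0.193). Among the other fits made here it was called only without Smad2_KO2 replicate 3 (mean 0.69) or when the KO libraries were averaged or joined. The authors' deposited false discovery rate for it was 0.0487.

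Summed over the whole window of gene body and 20 kb on each side, Smad9 was the gene that was called higher in both treatments. In Ctrl its sum was 1166, 1112, 1032 and 1060.1 normalized reads in WT, 1276, 1142, 1288 and 1233 in Smad2_KO1 and 1211, 1278, 1110.2 and 1302 in Smad2_KO2. Of the 8 KO libraries 6 exceeded the highest WT library. The log2 fold changes were 0.18 and 0.16 (limma adjusted p = 0.0327 and 0.0491 over 20258 gene windows). In Paused the sums were 1525, 1311, 1422 and 1503 in WT, 1559 to 1644 in Smad2_KO1 and 1541 to 1667 in Smad2_KO2, so that all KO libraries exceeded WT. The log2 fold changes there were 0.16 and 0.14 (adjusted p = 0.00922 and 0.0206). Of all windows 8.39% were called in Ctrl (3.35% higher, 5.04% lower) and 27.2% in Paused (6.62% higher, 20.6% lower), against 1 of the 6 Smad genes in each, called higher.

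The Smad9 calls depended on the scaling. Under DESeq2 size factors the mean change of Smad9 was 0.10 in Ctrl and 0.04 in Paused (adjusted p = 0.183 and 0.614), while the median of all windows moved from -0.02 to -0.09 and from -0.05 to -0.16. Relative to that median Smad9 stood at 0.19 in Ctrl and 0.20 in Paused under both scalings. A scaling factor shifts all windows by nearly the same amount, so this agreement follows from the method and is no check of the calls. In Ctrl the call was kept only when the library left out was WT replicate 1, Smad2_KO1 replicate 2 or Smad2_KO2 replicate 3 (largest adjusted p otherwise 0.180). In Paused it was lost without WT replicate 2 or Smad2_KO2 replicate 2 (largest 0.0989). The gene bodies of Alg5 and Rfxap also lie within the Smad9 window.

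The Smad4 window moved the other way in Ctrl. It read 1023, 983, 975 and 1068 in WT, 929, 874, 935 and 932 in Smad2_KO1 and 956, 939, 879 and 935 in Smad2_KO2. All 8 KO libraries were below all WT libraries, and the log2 fold changes of -0.14 and -0.13 did not pass (limma adjusted p = 0.0891 and 0.139). It was called lower under DESeq2 size factors (-0.21, adjusted p = 0.0118), and also over the gene body alone. Of all windows 24.2% and 6.5% were called in these fits, in either direction, and the median of all windows under size factors was -0.09. In Paused the groups overlapped (-0.04 and -0.07, adjusted p = 0.618 and 0.318), and relative to the median of all windows Smad4 was at -0.01. It was called lower there too under DESeq2 size factors (-0.16, adjusted p = 0.0339) and TMM factors (-0.15, adjusted p = 0.0465). Under these scalings 52.1% and 49.3% of all Paused windows were called in either direction, and the median of all windows was -0.16 and -0.15, near the Smad4 values.

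The windows of Smad1, Smad2, Smad3 and Smad5 were called in neither treatment. In Ctrl they changed by -0.03, 0.08, 0.04 and -0.01 (mean of the KO lines, log2 scale) and in Paused by 0.02, 0.05, 0.01 and 0.01, and under DESeq2 size factors all of these signs but that of Smad2 in Ctrl were negative. Per kb of window, WT signal in Ctrl was 12.7 ± 0.690 normalized reads at Smad9, 9.28 ± 0.392 at Smad4, 7.67 ± 0.958 at Smad1, 6.62 ± 0.405 at Smad3, 5.69 ± 0.271 at Smad5 and 4.82 ± 0.297 at Smad2 (SD, n = 4). In that order only Smad1 and Smad3 overlapped as neighbours. In Paused it was 16.7 ± 1.13 at Smad9, and the other genes lay between 6.13 ± 0.814 at Smad2 and 8.60 ± 0.672 at Smad4. Smad2, with the strongest start-site interval (chosen as the strongest in or near the gene), had the lowest level per kb of window.

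**Figure D4:**
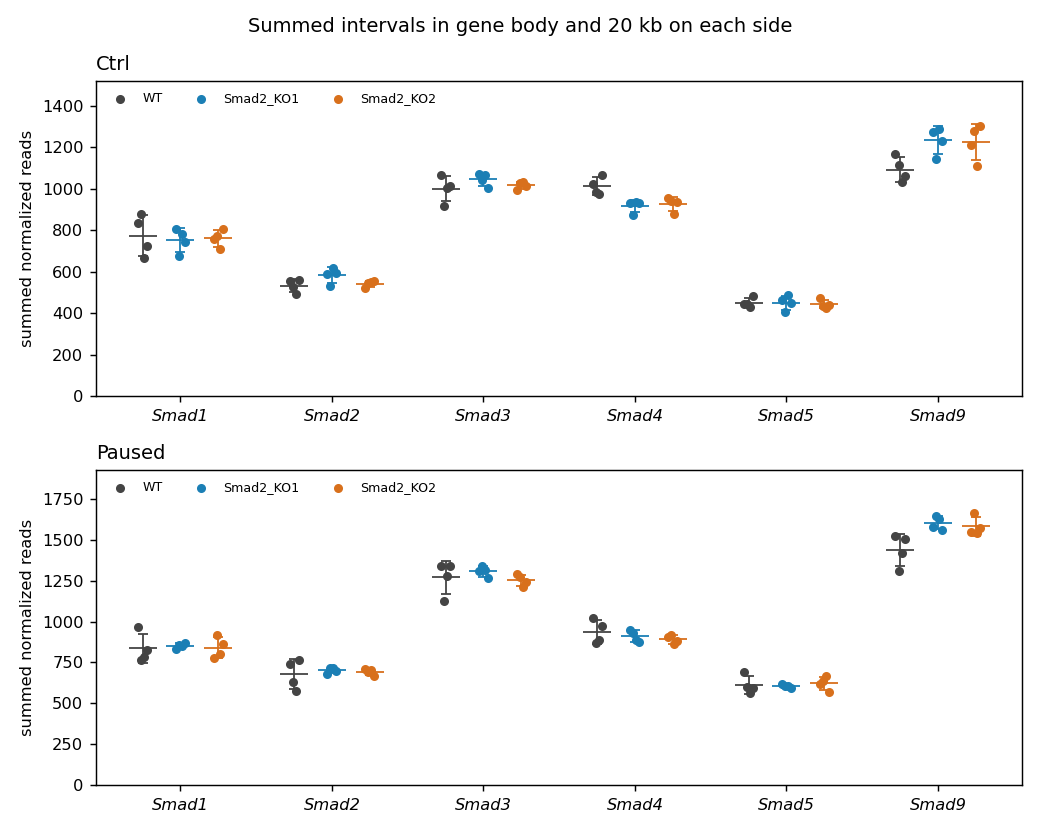
Summed normalized reads (y axis, from 0) over gene body and 20 kb on each side for each Smad gene (x axis) in Ctrl and Paused, with 1 point per library and bars at the mean ± SD of 4 libraries. Smad9 is the highest window, with KO means above the WT mean in both treatments, and in Ctrl all KO points of Smad4 lie below its WT points.

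Beside the 6 genes, 34 other genes of the pathway were counted over the same windows. Of their tested intervals 37 of 691 were called in Ctrl (5.35%, 17 higher and 20 lower) and 78 of 684 in Paused (11.4%, 42 and 36), beside 7.15% and 13.9% of all tested intervals. Among the 34 whole windows 1 was called higher and 4 lower in Ctrl, beside 3.35% and 5.04% of all windows, and 3 higher and 7 lower in Paused, beside 6.62% and 20.6%.

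Receptor genes were called in both directions. Bmpr1a, a type I BMP receptor, was higher in both treatments (0.20 and 0.18 in Ctrl, 0.21 and 0.17 in Paused, log2 scale). Bmpr1b, its close relative, was lower in both (-0.18 and -0.26, then -0.21 and -0.20). In Paused the type II BMP receptor gene Bmpr2 (0.18 and 0.17) and the Nodal receptor gene Acvr1c (0.22 and 0.28) were called higher as well.

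Of the 2 inhibitory Smad and 4 co-repressor genes, 3 windows were called lower in Ctrl and 2 in Paused, and none higher, beside 5.04% and 20.6% of all windows called lower. Smad7, an inhibitory Smad, changed by -0.23 and -0.26 in Ctrl and by -0.19 and -0.17 in Paused. Ski, a co-repressor that binds Smads, changed by -0.30 and -0.24 and by -0.33 and -0.33, and had 9 called intervals in Paused, the most on the list, 8 of them lower. The related Skil was called lower in Ctrl (-0.25 and -0.23), whereas the inhibitory Smad6 was called in neither. In Paused the ligand genes Nodal (-0.13 and -0.12) and Bmp4 (-0.17 and -0.16), the co-receptor gene Tdgf1 (-0.18 and -0.16) and the Smad partner gene Foxh1 (-0.17 and -0.17) were called lower too. Limma adjusted p-values of these called windows were all under 0.05 in both KO lines. Other scalings were fitted to all windows, but their results were not read out for these ones. Under DESeq2 size factors the median of all windows was -0.09 in Ctrl and -0.16 in Paused, and 24.2% and 52.1% of all windows were called. Whether the calls named here hold under that scaling is therefore not known.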

How the data were processed

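The authors deposited 1 table per treatment. Its library columns hold normalized signal: in every column 100.0% of the deposited values lay within 0.010 of a whole multiple of 1 step, taken as 1 scaled read. In 4 of the 24 columns the step is so near 1 that whole reads cannot be told from rounded values at low levels, which bears on the edgeR and DESeq2 fits to recovered reads. Among all intervals edgeR called 21977 in Ctrl and 37848 in Paused. The authors' deposited log2 fold change (8 KO against 4 WT libraries), p-value and FDR columns were used only where named. Per the submitters' processing notes the tools were FastQC, Trim Galore, Bowtie2 2.4.1, MACS3 3.0.3 and DiffBind 3.16.0, with build mm10; duplicate, mitochondrial and Tn5-shift handling are not given in the sources used here.

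Here limma 3.58.1 in R 4.3.3 (eBayes with a trend) was fitted to log2(value + 1) of all 12 libraries of a table, with line as the factor, over 282089 (Ctrl) and 260539 (Paused) intervals with at least 4 libraries at 10 or more. Values were also summed over windows of protein-coding genes (RefSeq, GRCm38.p6, the patch line of the authors' build) and fitted alike. The fits were tested on simulated data. Alternatives used DESeq2 1.42.0, edgeR 4.0.16, other filters, pseudocounts, groupings, windows and left-out libraries. Intervals named were the start-site interval (for Smad2 and Smad4 the strongest in or near the gene), up to 4 called intervals per gene by size of change, or else the one with the smallest p; of the pathway genes, those with a called window or among the 3 with most called intervals in a table. The members, lists and tests were chosen with earlier results of these data known. Sequences are RefSeq's, and none is shown for Smad2 or Smad4.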

Additional observations from a re-analysis of the deposited data

Results flagged for a closer look

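Among 147 groups of 4 libraries at the named intervals and windows, 7 held a library whose distance from the nearest of the others exceeded Dixon's 95% critical value as a share of the group's range, where chance gives about 7.35 (1 in 20). In Ctrl these were Smad2_KO2 replicate 2 at the Smad4 interval 38.3 kb into the gene (85.55 normalized reads, the others 67.99 to 70.45), Smad2_KO1 replicate 2 at the Smad4 start-site interval (133.65, the others 182.73 to 186.37) and in the Smad4 window (873.84, the others 929.26 to 935.23), Smad2_KO2 replicate 2 at the Smad5 start-site interval (68.26, the others 87.55 to 91.36), and WT replicate 1 at the Smad9 start-site interval (152.74, the others 120.92 to 124.85). In Paused they were Smad2_KO2 replicate 2 at the Smad2 interval 24.3 kb into the gene (25.5, the others 12.35 to 14.22) and Smad2_KO1 replicate 4 at the Smad9 interval 30.6 kb into the gene (117.2, the others 120.52 to 120.93). Of these 7 entries, 5 were replicate 2 of a KO line, but Ctrl Smad2_KO1 replicate 2 and Ctrl Smad2_KO2 replicate 2 each appear more than once. The Smad4 start-site interval is also part of the Smad4 window. The number of such groups was about that which chance gives.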

How the results depend on the processing

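The count of called members was 9 of 123 in Ctrl and 15 of 128 in Paused, beside 7.15% and 13.9% of all tested intervals. A percentage after a count below is the share of all tested intervals (or windows) called in the same fit. In Ctrl it was 5 (4.06%) with the DESeq2 Wald test on recovered reads and 17 (12.4%) with the KO libraries of 1 replicate number averaged. It was 23 (17.6%) with the 8 KO libraries as 1 group and 3 (3.29%) without WT replicates 3 and 4. Leaving out 1 library gave 4 to 12, the 12 without WT replicate 2 (7.63%). The count was 5 without Smad2_KO1 replicate 3 (5.34%) or Smad2_KO2 replicate 4 (6.07%), and 4 without Smad2_KO2 replicate 1 (5.3%). In Paused it was 6 (8.89%) with the DESeq2 Wald test, 8 (10.7%) with only the compared lines fitted and 30 (28.7%) with the 8 KO libraries as 1 group. Leaving out 1 library gave 6 to 18, the 18 without WT replicate 3 (15.0%). The count was 8 without WT replicate 4 (10.8%) or Smad2_KO1 replicate 1 (11.0%) or 3 (10.5%). It was 6 without Smad2_KO1 replicate 2 (9.74%) or Smad2_KO2 replicate 2 (9.68%). Called windows among the 6 genes, 1 in each treatment, numbered 0 to 1 without 1 library in either treatment. In Ctrl they were 0 with only the compared lines fitted (7.17% of all windows) or without WT replicates 3 and 4 (5.34%). They were 2 with the 8 KO libraries as 1 group (20.6%), the gene body extended by 5 kb (7.18%) or the gene body alone (6.5%). In Paused they were 0 without WT replicates 1 and 2 (23.2%). The cause was not tested. Of the 9 Ctrl and 14 Paused calls described interval by interval, the DESeq2 Wald test ended 5 and 8, leaving out WT replicates 3 and 4 ended 6 and 7, WT replicates 1 and 2 ended 3 and 6, fitting only the compared lines ended 3 and 6, DESeq2 size factors ended 2 and 5, TMM factors 2 and 4, and edgeR 1 and 5. No called value changed sign in any alternative, and 4 of 23 named called intervals held in all of them and without each library. With the replicate number as a block (replicate block), 10 members in Ctrl (7.97%) and 16 in Paused (16.2%) were called. So was 1 window in each, beside 9.77% and 30.5% of all windows. Libraries of 1 number deviated together weakly over intervals (mean correlation 0.03 in Ctrl and 0.05 in Paused) and over windows (0.085 in each). Libraries of different numbers gave -0.009 and -0.017 over intervals and -0.028 over windows. Whether the numbers pair the libraries cannot be told from these values. Between the KO lines 0 members were called in every alternative run. Intervals under about 10 normalized reads rest on few reads, which limits what their calls can show.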
